A study of Homo sapiens with 15 samples.

Results

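The genes described here encode the subunits of human potassium channels: every row of the deposited count and TPM tables that mapped to a GENCODE protein-coding gene whose symbol starts with KCN. GENCODE release 44 holds 96 such genes and 95 of them had a row, out of 48777 genes in the tables; KCNA6 was not analysed here. TPM is transcript abundance corrected for gene length and scaled to a fixed total per library. A member was retained when its mean was at least 1 TPM on any of the 5 days sampled, which 93 of the 95 met, and 76 met without day 20 replicate 2, a library of low RNA integrity. The samples were 15 bulk RNA-seq libraries of H1, an established human embryonic stem cell line, grown on the laminin matrix LN-521 with LN-221 and taken in 3 replicates on each of days 0, 4, 9, 11 and 20. Day 0 cells were undifferentiated, and the deposited sample table lists LN-521 alone for them. Differentiation was directed with CHIR99021, an activator of Wnt signalling, and then IWP2, an inhibitor of Wnt secretion, and cells of day 11 onwards were kept in B-27-supplemented medium. The labels give 2 schedules for these agents, so whether the day 4 cells had met CHIR99021 could not be settled, and the methods list day 7 where the labels have day 9. All libraries come from 1 cell line, and none of the samples was an undirected culture of the later days, so day and treatment cannot be told apart.

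Potassium channels set the resting membrane potential and end the action potential by letting potassium leave the cell. Voltage-gated pores (Kv, the KCNA to KCND, KCNH and KCNQ families) open on depolarisation; modifier subunits (KCNF, KCNG, KCNS and KCNV) make no current alone but change the Kv pores they join. Inward rectifiers (KCNJ) hold the resting potential of muscle and carry the acetylcholine-activated and ATP-sensitive currents, tandem-pore-domain (K2P, KCNK) channels carry background leak, and a further family opens with internal calcium or sodium (KCNM, KCNN, KCNT, KCNU). Auxiliary subunits (KCNE, KCNAB, KCNIP, KCNMB) alter gating and delivery to the membrane. In cardiac muscle the rapid and slow delayed rectifiers are carried by KCNH2 and by KCNQ1 with KCNE1, the transient outward current by KCND2 or KCND3 with KCNIP2, and the atrial acetylcholine current by KCNJ3 with KCNJ5.

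Library totals ran from 11990302 to 33469703 counts, with a median of 22867831. Small genes of under 200 bases took 5.66 to 29.2% of the TPM of a library, most in day 0 replicate 3 and next day 9 replicate 1 (22.7%). A high share lowers every other gene's TPM in that library. Pluripotency and cardiomyocyte markers followed the labels. The sum of 5 pluripotency genes was 4220 to 5801 TPM on day 0 and 58.9 to 105 on day 20. That of 7 cardiomyocyte genes was 18.4 to 26.3 TPM on day 0, 184 to 1281 on day 9, 3624 to 20698 on day 11 and 5106 to 22698 on day 20. Days 9, 11 and 20 were mixed. Over 6 hepatic or yolk sac genes the sums were 314 to 1377 TPM on day 9 and 889 to 2993 on day 11. Over 6 mesenchymal genes they were 615 to 1936 TPM on day 9 and 1030 to 6099 on day 11. Over 5 epithelial genes they were 4533 to 6381 TPM on day 9 and 3684 to 5656 on day 11, beside 1448 to 1667 on day 0. Over 5 endothelial genes they were 354 to 740 and 355 to 613 TPM on days 9 and 11, beside 159 to 320 on day 0. Over 4 smooth muscle genes they were 86.9 to 174 TPM on day 9 and 466 to 909 on day 11. Day 20 replicates 1, 2 and 3 summed to 22698, 21720 and 5106 TPM over the cardiomyocyte genes, to 18167, 715 and 21708 TPM over the hepatic or yolk sac genes, and to 2522, 1123 and 21818 TPM over the mesenchymal genes. No marker was at 0 counts over any day's libraries. In bulk RNA, fewer cells of a type and less RNA per cell cannot be told apart.

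Day 20 replicate 2 stood apart. Its RNA integrity number was 6.1 where the other libraries had 8.8 to 10, and 48230 genes had a count in it where the others had 30886 to 39551. A group of 18 members stayed under 1 TPM in each of the other 14 libraries yet read 1.92 to 7.52 TPM in this one, with a median of 3.55. KCNK18, for instance, was at 4.41 TPM there and at or below 0.583 elsewhere, and KCNJ18 at 4.99 TPM there against at most 0.0834. Of the 93 retained members, 17 passed 1 TPM only through this library: KCNA2, KCNA10, KCNC1, KCNC2, KCNG4, KCNJ9, KCNJ15, KCNJ18, KCNK4, KCNK9, KCNK16, KCNK18, KCNMB1, KCNMB2, KCNS2, KCNT1 and KCNU1. Just outside the rule were KCNJ1 and KCNIP3, with highest day means of 0.824 and 0.839 TPM, and just inside were KCNMB2 and KCNRG, at 1.12 and 1.15. Without the library the nearest members outside and inside were KCNMB1 at 0.766 TPM and KCNRG at 1.15. Day 20 values are therefore given by replicate for the main members, and day 20 means and shares include replicate 2 unless stated.

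**Figure D1:**
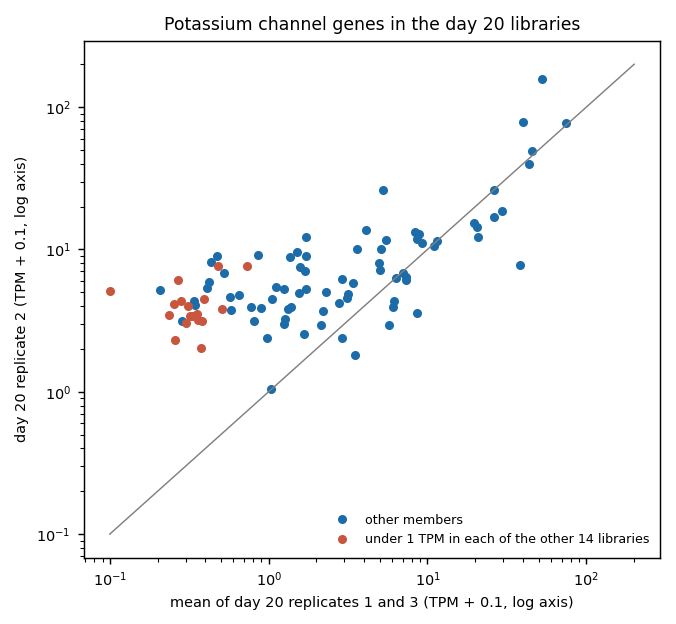
TPM of each of the 95 listed members in day 20 replicate 2 (vertical, TPM + 0.1, log axis) against its mean in day 20 replicates 1 and 3 (horizontal, TPM + 0.1, log axis), with the line of equality. The 18 members under 1 TPM in each of the other 14 libraries (red) sat at 1.92 to 7.52 TPM in replicate 2. Members with high means lay on both sides of the line, with KCNH7 at 158 TPM against 52.5 and KCNK6 at 7.73 against 38.4.

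The number of members at a mean of at least 1 TPM was 56 on day 0, 57 on day 4, 52 on day 9, 54 on day 11 and 58 on day 20 without replicate 2 (92 with it). What changed was which members, and which classes, supplied the transcripts. The summed TPM of the 95 members was 773, 509 and 591 in the day 0 replicates, 731, 750.2 and 779 on day 4, 343, 376 and 383 on day 9, 446, 553 and 513 on day 11 and 724, 1004 and 561 on day 20. The sum was thus lower in every day 9 library than in any library of days 0 and 4. K2P genes supplied 39.2 ± 1.7% (SD, n = 3) of that sum on day 0, 29.1 ± 3.7% on day 9, 13.3 ± 5.3% on day 11 and 9.8 ± 5.6% on day 20. Voltage-gated pores went the other way, from 15.3 ± 0.77% on day 0 to 24.3 ± 2.7% on day 9, 26.7 ± 4.6% on day 11 and 41.7 ± 8.6% on day 20. Modifiers supplied 20.0 ± 2.3% on day 0 and 4.0 ± 1.5% on day 20, and inward rectifiers 4.2 ± 0.61% and 18.6 ± 4.9%. The ranges of these 4 classes on days 0 and 20 did not overlap between libraries. Shares of one sum are not independent of each other. The day 20 shares include replicate 2. It had the highest voltage-gated and modifier shares of that day, 49.2% and 5.55%, and the lowest inward rectifier share, 15.4%.

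**Figure D2:**
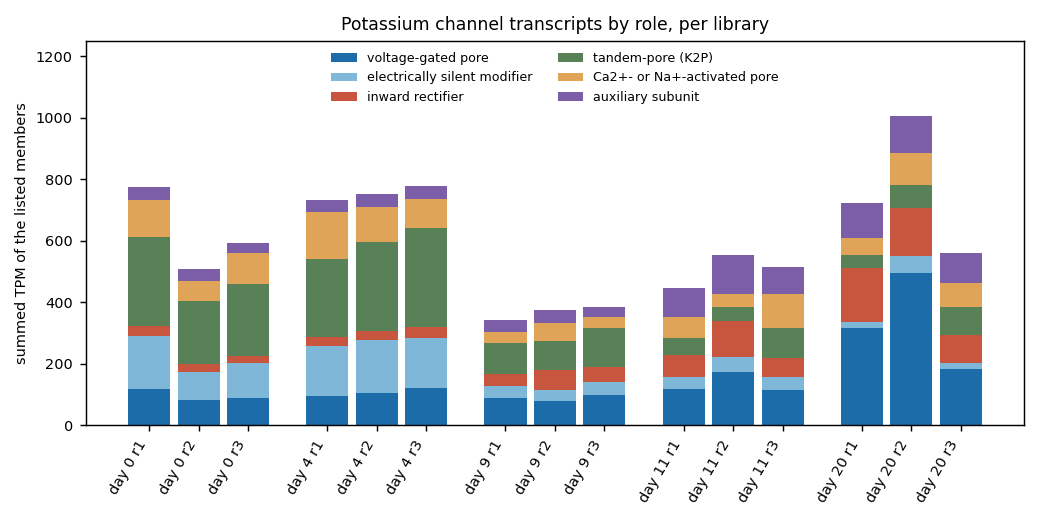
Summed TPM of the listed potassium channel genes in each of the 15 libraries (r1 to r3, the replicates of a day), stacked by role. K2P genes and modifiers form most of the day 0 and day 4 bars, and voltage-gated pores are the largest class in each day 20 bar; the tallest bar, day 20 replicate 2, reaches 1004 TPM.

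The 5 comparisons were tested gene by gene with edgeR's quasi-likelihood test on the counts, 3 libraries against 3, and a Benjamini-Hochberg adjusted p under 0.05, computed on every gene in the test, was the threshold. "Rose", "fell" and "called" mean past that threshold in this test unless another tool or setting is named. Between days 0 and 4 none of the 76 members tested was called, and 0% of all genes were; 2 members and 741 genes had an unadjusted p under 0.05, and DESeq2 also called 0, with 3 members at an unadjusted p under 0.05. Between days 4 and 9 the repertoire turned over: 33 of 77 members tested fell (42.9%, against 24.7% of all genes tested) and 12 rose (15.6%, against 24.3%). The members' median log2 fold change was -0.22, and that of all genes 0.01. By class, 13 of 26 voltage-gated pores fell and 4 rose, 6 of 11 K2P genes fell and 1 rose, 4 of 7 calcium- or sodium-activated pores fell, 3 of 13 inward rectifiers fell and 4 rose, 3 of 8 modifiers fell and 2 rose, and 4 of 12 auxiliary genes fell and 1 rose. The counts depended on the fit. With all 15 libraries in one fit, 22 of 86 members were lower (against 13.2% of all genes) and 11 of 86 higher (against 11.9%), and 32 of the 45 calls were shared. Calls lost there included the rise of KCNH2 (adjusted p = 0.0647) and the falls of KCNK6 (0.0777), KCNS1 (0.110), KCNIP2 (0.112), KCNQ1 (0.129) and KCND1 (0.130). They also included the falls of KCNK10 (0.140), KCNQ3 (0.146), KCNH4 (0.269) and KCNE3 (0.334).

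Between days 9 and 11, the step to the day 11 cells that the study calls committed cardiac progenitors, 4 of 69 members rose (5.8%, against 1.39% of all genes tested) and none fell (against 1.00%). These were the auxiliary genes KCNIP2 and KCNIP4, the modifier KCNV1 and the pore KCNH7; 18 members had an unadjusted p under 0.05, and the members' median log2 fold change was 0.17 beside 0.00 for all genes. DESeq2 called 9 members higher (against 4.58% of all genes) and 4 lower (against 3.51%), the latter being KCNA1, KCNG3, KCNK12 and KCNG1. The edgeR count rested on single libraries, being 0 without day 9 replicate 1, 7 without day 9 replicate 2 and 2 without day 9 replicate 3. Between days 11 and 20 no member of 70 passed (against 1.55% of all genes), although 21 had an unadjusted p under 0.05 and the median log2 fold change of the members was 0.77 beside 0.07 for all genes. DESeq2 called 12 members there, KCNV1 lower and 11 higher (15.7% of members, against 6.12% of all genes): KCNA4, KCNQ3, KCNT1, KCNH7, KCNE4, KCNN3, KCNH6, KCNQ1, KCNJ8, KCNQ5 and KCNAB2. The median and the DESeq2 calls include day 20 replicate 2, in which members low elsewhere read higher. KCNT1 read 0.332, 7.52 and 0.925 TPM in the day 20 replicates, and so passed 1 TPM only in replicate 2. With edgeR, 2 members passed without day 20 replicate 2, KCNV1 lower and KCNA4 higher, and 2 without day 20 replicate 3, KCNH7 and KCNA4, both higher. In CPM (counts scaled to a common library total) the 3 day 20 libraries lay above all 3 of day 11 for 14 of 74 members (18.9%, against 12.4% of all genes) and below for 4, namely KCNH1, KCNIP2, KCNK1 and KCNV1 (5.4%, against 10.4%).

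Over the whole course, day 20 against day 0, 22 of 80 members rose (27.5%, against 16.1% of all genes tested) and 7 fell (8.75%, against 11.3%), with a members' median log2 fold change of 0.76 beside 0.11 for all genes. That median includes day 20 replicate 2, in which members low elsewhere read higher, and no median without this library was computed. Without day 20 replicate 2 the count was 39 of 83, with 23 of 83 higher (against 20.7%) and 16 of 83 lower (against 17.9%). The share of members lower was then not below that of all genes. Of the 29 calls 28 were shared, KCNK1 being the one lost without day 20 replicate 2. The members called lower only without it included KCNK17, KCNK2, KCNB2, KCNS1, KCNJ10, KCNE5, KCNH8, KCNA3 and KCNJ6, which read 3.06 to 8.10 TPM in that library. The count was 19 without day 0 replicate 2 and 18 without day 0 replicate 3.

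**Figure D3:**
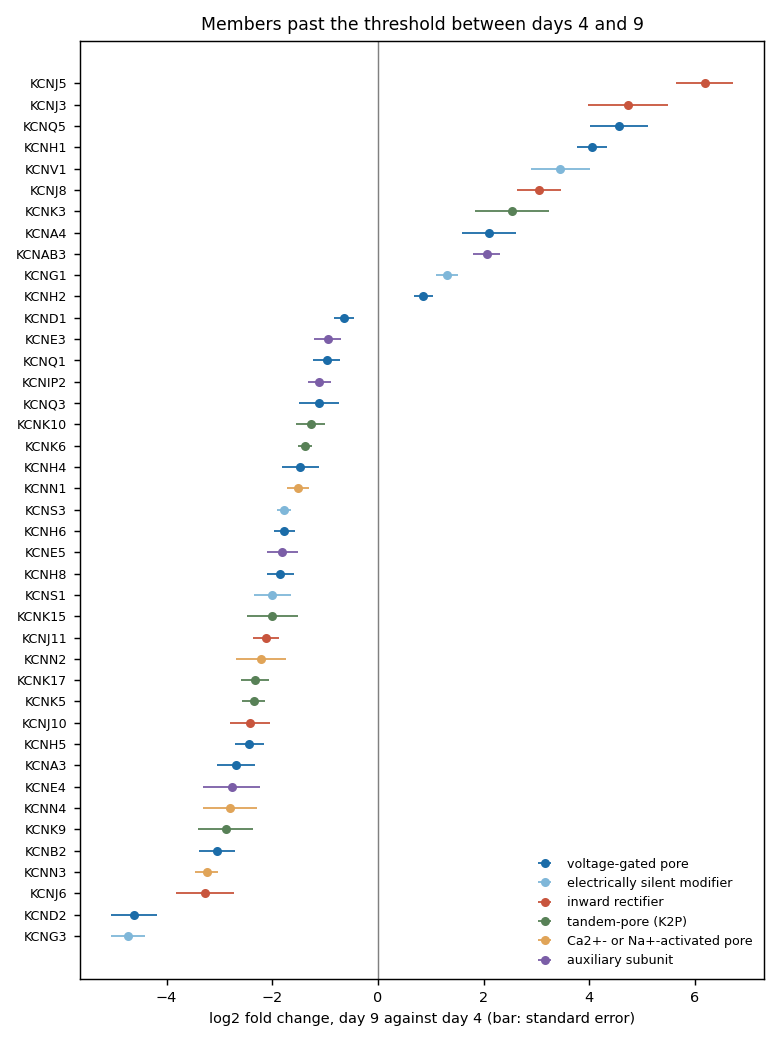
Log2 fold change on day 9 against day 4 (horizontal) of 41 of the 45 members past the threshold, coloured by role, with bars for the standard error from edgeR. KCNG3 and KCND2 lie lowest, at -4.73 and -4.62, and KCNJ5 and KCNJ3 highest, at 6.18 and 4.74; KCNJ16, with 2 counts over the day 4 libraries, is left out, as are the others past the threshold whose results are not reported here.

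The promoters of 3 members, KCNG3 and KCNK5 lower and KCNJ5 higher after day 4, are shown because all of them are rich in CpG, the dinucleotide whose methylation can silence a promoter. They are examples and not the members with the most CG. KCNMA1 had 46 and KCND3 44, and KCNA4, which rose between days 4 and 9, had 30. Nor are they free of selection by change. KCNG3 had the largest fall of any member between days 4 and 9, and KCNJ5 the largest rise but for KCNJ16. Other members changed more between days 4 and 9 than KCNK5 did. Each line is the 250 bases before the gene's start, 5′ to 3′ on the gene's strand, from RefSeq on GRCh38.p14, with each CG in capitals. They lie at chr2:42493983-42494232 on the minus strand for KCNG3, chr6:39229476-39229725 on the minus strand for KCNK5 and chr11:128891106-128891355 on the plus strand for KCNJ5.
KCNG3: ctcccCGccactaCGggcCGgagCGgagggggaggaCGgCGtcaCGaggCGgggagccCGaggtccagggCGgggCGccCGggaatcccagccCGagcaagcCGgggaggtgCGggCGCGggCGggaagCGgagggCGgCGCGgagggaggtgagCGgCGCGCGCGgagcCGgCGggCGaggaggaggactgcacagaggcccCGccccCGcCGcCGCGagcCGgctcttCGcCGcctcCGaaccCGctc
KCNK5: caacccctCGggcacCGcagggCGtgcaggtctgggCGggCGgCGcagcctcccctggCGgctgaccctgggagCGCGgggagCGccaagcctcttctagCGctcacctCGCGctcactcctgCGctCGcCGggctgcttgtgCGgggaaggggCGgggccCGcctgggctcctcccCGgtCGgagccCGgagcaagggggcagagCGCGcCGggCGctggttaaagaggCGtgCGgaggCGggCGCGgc
KCNJ5: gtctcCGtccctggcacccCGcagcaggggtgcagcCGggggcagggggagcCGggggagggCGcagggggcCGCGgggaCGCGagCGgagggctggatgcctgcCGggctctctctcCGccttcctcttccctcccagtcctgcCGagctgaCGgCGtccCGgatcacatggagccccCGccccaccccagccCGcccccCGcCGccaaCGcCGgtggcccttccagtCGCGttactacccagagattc
The CG count was 40 for KCNG3, 31 for KCNK5 and 24 for KCNJ5. A promoter was found for 71 of the 95 members, with a median of 15 CG in the 250 bases, beside 11 over all 35116 promoters of the table. The 22 matched members that fell between days 4 and 9 had a median of 18 (5 to 40), and the 9 that rose had 24 (3 to 30), so the ranges overlapped. No methylation was measured in these cells.

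K2P channels made up the largest class in stem cells. KCNK5 (chr6:39188971-39229475 on GRCh38, minus strand), an alkaline-activated background channel, was the most abundant member on days 0 and 4 and the highest on day 9 as well. The replicates read 164, 133 and 143 TPM on day 0, 124, 179 and 211 on day 4 and 24.8, 37.6 and 37.1 on day 9. They read 11.8, 7.85 and 28 on day 11 and 2.83, 3.87 and 9.03 on day 20. Every day 9 value lay below every day 4 value, and every day 20 value below every day 9 value. KCNK5 fell between days 4 and 9 (log2 fold change -2.35 ± 0.22 (SE), adjusted p = 9.41e-05) and was lower on day 20 than on day 0 (log2 fold change -5.02 ± 0.55 (SE), adjusted p = 0.000822). KCNK6 (chr19:38319845-38332076 on GRCh38, plus strand), a lysosomal K2P channel also called TWIK2, ranked after KCNK5, KCNG3 and KCNN2 on day 0. TPM of KCNK6 were 58.7, 41.1 and 47.8 on day 0, 53.5, 50.3 and 56.5 on day 4, 20.3, 18.6 and 21.5 on day 9, 17, 13.8 and 34 on day 11 and 20.2, 7.73 and 56.6 on day 20. It fell between days 4 and 9 (log2 fold change -1.38 ± 0.13 (SE), adjusted p = 6.76e-05). On day 20 its 3 replicates ranged from 7.73 to 56.6 TPM, with the highest value in replicate 3, the one with the highest mesenchymal sum (21818 TPM), and the part of that in the result was not tested.

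KCNK12, a K2P subunit that carries little current alone, was retained to day 9 and lower afterwards. KCNK12 lay at 24.1, 9.01 and 22.5 TPM on day 0 and at 38.4, 18.7 and 20.4 on day 4. The later replicates were at 31.9, 17 and 35.7 on day 9, 7.50, 4.32 and 9.70 on day 11 and 1.08, 4.92 and 3.29 on day 20. It was lower on day 20 than on day 0 (log2 fold change -2.93 ± 0.58 (SE), adjusted p = 0.00789), and every value of days 11 and 20 lay below every value of day 9. KCNK1 (TWIK1), a weakly conducting K2P channel, moved less. Its TPM by replicate were 24.3, 10.3 and 14.1 on day 0, 21.9, 20.6 and 18.7 on day 4, 16.7, 11.8 and 22.8 on day 9, 10.9, 13.2 and 17.1 on day 11 and 4.62, 6.26 and 9.84 on day 20. Its fall to day 20 was close to the threshold (log2 fold change -1.44 ± 0.45 (SE), adjusted p = 0.0467), and the call was lost when any 1 of 5 libraries was left out (adjusted p = 0.154 without day 0 replicate 1, 0.0527 without day 0 replicate 2, 0.115 without day 0 replicate 3, 0.0905 without day 20 replicate 1 and 0.0732 without day 20 replicate 2). KCNK3 (TASK1), an acid-sensitive background channel of atrial muscle, was the one K2P gene that rose in any comparison. The 3 libraries of day 0 gave 0.278, 0.135 and 0.124 TPM, those of day 4 0.0970, 0.0270 and 0.234 and those of day 9 0.553, 1.29 and 0.304. Day 11 gave 1.48, 4.64 and 0.873 and day 20 10.6, 3.48 and 6.28. KCNK3 rose between days 4 and 9 (log2 fold change 2.53 ± 0.70 (SE), adjusted p = 0.0176), a call lost without either of 2 day 4 libraries (adjusted p = 0.0702 without day 4 replicate 1 and 0.0597 without day 4 replicate 2), and was higher on day 20 than on day 0 (log2 fold change 5.05 ± 0.68 (SE), adjusted p = 0.00178). The day 20 value was highest in replicate 1. Of the lower members, KCNK17 went from 6.69 TPM on day 0 to 1.58 on day 9, and KCNK15, KCNK10 and KCNK9 also fell between days 4 and 9, the last with log2 fold change -2.88 ± 0.53 (SE), adjusted p = 0.00222 at means of 0.508 and 0.0643 TPM. KCNK13, KCNK7 and KCNK2 had highest means of 1.19 to 2.95 TPM once day 20 replicate 2 was set aside.

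Modifier subunits were led in stem cells by KCNG3 (chr2:42442017-42493982 on GRCh38, minus strand), which on its own forms no channel. KCNG3 was measured at 129, 48.3 and 83.2 TPM on day 0, 119, 119 and 117 on day 4, 5.82, 2.39 and 4.81 on day 9, 0.713, 1.21 and 1.34 on day 11 and 0.590, 3.80 and 0.998 on day 20. The day 4 values were close together (SD 1.03 TPM, n = 3), and no day 9 value was above 5.82 TPM. KCNG3 showed the largest fall of any member between days 4 and 9 (log2 fold change -4.73 ± 0.33 (SE), adjusted p = 3.24e-05) and over the whole course (log2 fold change -5.99 ± 0.68 (SE), adjusted p = 0.000919). KCNB2, a pore that such modifiers can join, was low, with means of 2.08, 2.41 and 0.285 TPM on days 0, 4 and 9, and fell between days 4 and 9 (log2 fold change -3.04 ± 0.34 (SE), adjusted p = 0.000183). KCNS3, another modifier, followed the same course at a lower level. By replicate, KCNS3 read 32.3, 32.1 and 22.7 TPM on day 0, 29, 34 and 30.5 on day 4 and 8.79, 9.41 and 8.81 on day 9, followed by 10.5, 7.14 and 8.11 on day 11 and 9.93, 6.76 and 3.94 on day 20. It fell between days 4 and 9 (log2 fold change -1.77 ± 0.13 (SE), adjusted p = 2.54e-05) and stayed lower on day 20 than on day 0 (log2 fold change -2.31 ± 0.39 (SE), adjusted p = 0.00438).

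KCNG1 and KCNV1 were modifiers of the progenitor days. KCNG1 peaked on day 9. The replicates read 6.02, 4.66 and 4.93 TPM on day 0, 8.02, 9.14 and 5.99 on day 4 and 16.6, 17 and 22.5 on day 9. They read 6.30, 12.6 and 4.52 on day 11 and 4.18, 6.0 and 10.2 on day 20. All 3 day 9 values lay above every value of the other days, and KCNG1 rose between days 4 and 9 (log2 fold change 1.30 ± 0.21 (SE), adjusted p = 0.00114). KCNV1 peaked on day 11. TPM of KCNV1 were 0.124, 0.258 and 0.111 on day 0, 0.0692, 0.0722 and 0.256 on day 4, 1.07, 2.36 and 0.911 on day 9, 15.9, 24.1 and 21.9 on day 11 and 0.415, 5.37 and 1.61 on day 20. It rose between days 4 and 9 (log2 fold change 3.45 ± 0.55 (SE), adjusted p = 0.00123) and again between days 9 and 11 (log2 fold change 3.81 ± 0.36 (SE), adjusted p = 0.0115), the latter call being lost without day 9 replicate 1 (adjusted p = 0.0922 without day 9 replicate 1). All 3 day 20 values lay below all 3 day 11 values (log2 fold change -3.35 ± 0.70 (SE), adjusted p = 0.0606), a difference that missed the threshold with all 6 libraries. Without day 20 replicate 2, which read 5.37 TPM, it passed (log2 fold change -4.36 ± 0.63 (SE), adjusted p = 0.0307). KCNS1 fell between days 4 and 9, from a mean of 3.48 to 0.858 TPM, and KCNF1, KCNG2 and KCNV2 had day means of 0.713 to 1.83 TPM once day 20 replicate 2 was set aside.

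Calcium- or sodium-activated pores were led by KCNN2 (chr5:114055926-114496500 on GRCh38, plus strand), the SK2 channel, which opens with internal calcium and contributes to atrial repolarisation. KCNN2 lay at 70.5, 40.9 and 57.5 TPM on day 0 and at 105, 70.0 and 49.7 on day 4. The later replicates were at 7.91, 30.4 and 11.2 on day 9, 40.6, 19.9 and 95 on day 11 and 34.1, 49 and 56.3 on day 20. It was among the 4 highest members on days 0, 4, 11 and 20 and lower between them. KCNN2 fell between days 4 and 9 (log2 fold change -2.21 ± 0.47 (SE), adjusted p = 0.00634), a call lost without day 9 replicate 3 (adjusted p = 0.0752 without day 9 replicate 3). Its day 9 value was highest in replicate 2. That day 9 library had the highest cardiomyocyte (1281 TPM), hepatic or yolk sac (1377 TPM) and mesenchymal (1936 TPM) sums. The day 11 value was highest in replicate 3, which had the lowest cardiomyocyte sum of that day (3624 TPM). The same library had the highest hepatic or yolk sac (2993 TPM) and mesenchymal (6099 TPM) sums of day 11. The part of any of these in the result was not tested. KCNN1 (SK1) was a stem cell member. Its TPM by replicate were 29.4, 8.79 and 23 on day 0, 27.8, 23.1 and 24.2 on day 4, 9.92, 6.62 and 9.18 on day 9, 9.85, 5.90 and 4.05 on day 11 and 11.5, 11 and 6.83 on day 20. It fell between days 4 and 9 (log2 fold change -1.51 ± 0.21 (SE), adjusted p = 0.000511). KCNN3 and KCNN4, the SK3 and intermediate-conductance channels, were lower in level and fell with log2 fold change -3.24 ± 0.22 (SE), adjusted p = 1.43e-05 and log2 fold change -2.81 ± 0.51 (SE), adjusted p = 0.0022 respectively. KCNT2, a sodium-activated channel, varied little. The 3 libraries of day 0 gave 12.3, 9.95 and 10.7 TPM, those of day 4 11.3, 10.1 and 13.1 and those of day 9 11.6, 13.8 and 13.6. Day 11 gave 12.8, 12.7 and 6.93 and day 20 8.55, 13.2 and 7.97. It was called in none of the 5 comparisons, and its day means stayed between 9.91 and 13 TPM. KCNMA1, the pore of the large-conductance calcium-activated (BK) channel, had day means of 1.84 to 3.62 TPM and no call.

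Among voltage-gated pores the KCNH family gave the 2 highest members of day 20. KCNH2 (chr7:150944961-150978321 on GRCh38, minus strand), the hERG pore of the rapid delayed rectifier, was present from the stem cells on. KCNH2 was measured at 18, 8.79 and 15.2 TPM on day 0, 16.5, 14 and 20.2 on day 4, 30.1, 26.2 and 33.8 on day 9, 40.5, 59.7 and 29.3 on day 11 and 89.2, 77.3 and 59.9 on day 20. Its day 9 values lay above every day 4 value and its day 20 values above every day 11 value, though the nearest of these were 59.9 and 59.7 TPM and the 2 days overlapped in CPM. KCNH2 rose between days 4 and 9 (log2 fold change 0.86 ± 0.18 (SE), adjusted p = 0.0042) and was higher on day 20 than on day 0 (log2 fold change 2.17 ± 0.36 (SE), adjusted p = 0.00396). The lowest day 20 value was that of replicate 3, the replicate with the lowest cardiomyocyte sum. KCNH7 (chr2:162371407-162838767 on GRCh38, minus strand), a related pore known mainly from neurons, was low to day 9. By replicate, KCNH7 read 2.41, 1.86 and 1.30 TPM on day 0, 1.41, 1.42 and 2.31 on day 4 and 1.63, 1.99 and 1.74 on day 9, followed by 9.18, 20.7 and 8.64 on day 11 and 79.3, 158 and 25.6 on day 20. It rose between days 9 and 11 (log2 fold change 2.78 ± 0.37 (SE), adjusted p = 0.0178), a call lost without day 9 replicates 1 or 3 (adjusted p = 0.116 without day 9 replicate 1 and 0.0817 without day 9 replicate 3), and was higher on day 20 than on day 0 (log2 fold change 5.21 ± 0.58 (SE), adjusted p = 0.000881). Its day 20 values spread from 25.6 to 158 TPM, with the highest in replicate 2 and the lowest in replicate 3, the replicate with the lowest cardiomyocyte sum. The 5 neural genes TUBB3, MAP2, STMN2, ELAVL3 and SOX1 summed to 35.6, 31.7 and 307 TPM in the same 3 libraries. Most of that sum was STMN2, at 33.9, 16.5 and 304 TPM. TUBB3, MAP2, ELAVL3 and SOX1 were each highest in replicate 2, at 2.78 to 5.52 TPM. Those readings lie within the 1.92 to 7.52 TPM that the 18 members under 1 TPM in the other 14 libraries read in replicate 2. The part of neural cells in the KCNH7 values was not tested. Without replicate 2 the change from day 0 was still called (log2 fold change 4.71 ± 0.49 (SE), adjusted p = 0.000742).

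KCNH1, an EAG pore, belonged to days 9 and 11. The replicates read 0.391, 0.415 and 0.350 TPM on day 0, 0.358, 0.476 and 0.540 on day 4 and 4.95, 8.94 and 8.66 on day 9. They read 5.26, 3.59 and 8.24 on day 11 and 0.417, 2.45 and 2.71 on day 20. KCNH1 rose between days 4 and 9 (log2 fold change 4.05 ± 0.28 (SE), adjusted p = 1.57e-05), with every day 9 value at least 9.16 times the highest day 4 value. The other KCNH genes were lower: KCNH8, KCNH6, KCNH4 and KCNH5 fell between days 4 and 9, KCNH5 with log2 fold change -2.44 ± 0.28 (SE), adjusted p = 0.000193, and KCNH3 was called in no comparison.

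**Figure D4:**
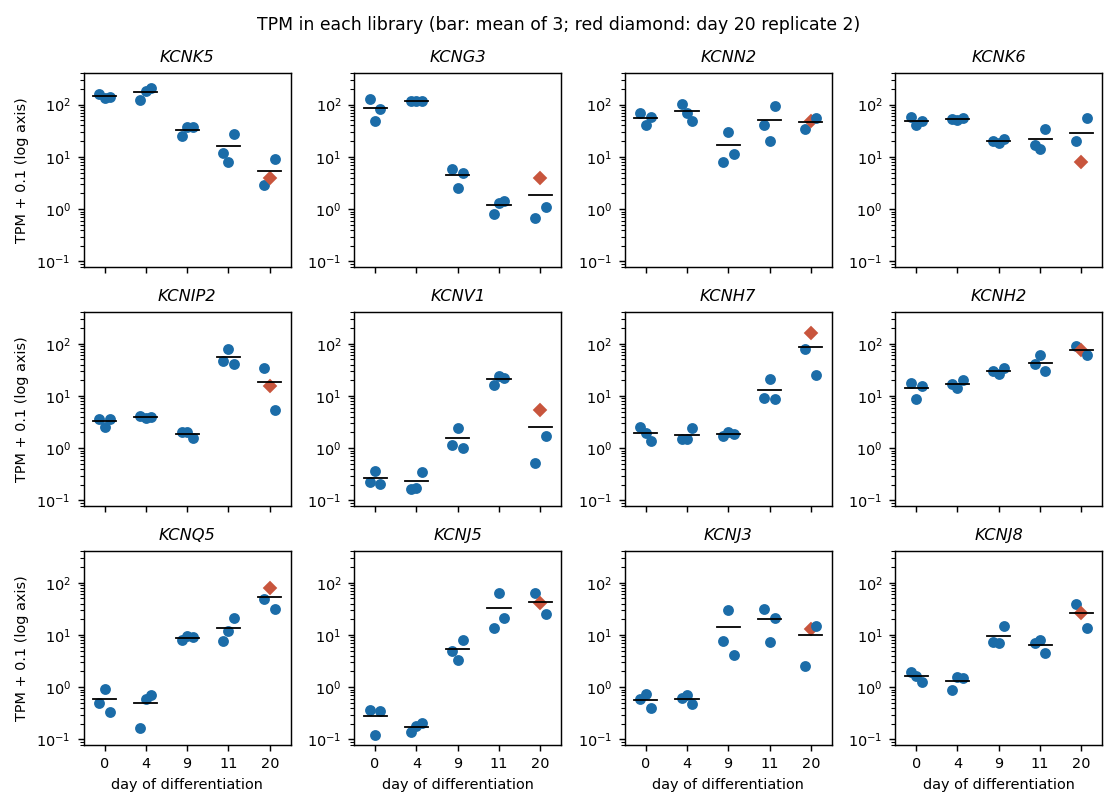
TPM + 0.1 (log axis) of 12 members in each library by day of differentiation, with a bar for the mean of the 3 libraries and a red diamond for day 20 replicate 2. KCNK5 and KCNG3 step down after day 4, KCNIP2 and KCNV1 peak on day 11, and KCNH7, KCNH2, KCNQ5, KCNJ5 and KCNJ8 have their highest mean on day 20.

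KCNQ5 (chr6:72621792-73198853 on GRCh38, plus strand), a pore of the neuronal M-current, had its highest mean on day 20. TPM of KCNQ5 were 0.400, 0.826 and 0.238 on day 0, 0.0638, 0.488 and 0.621 on day 4, 8.0, 9.31 and 8.99 on day 9, 7.57, 11.9 and 20.6 on day 11 and 48.5, 78.1 and 31.4 on day 20. KCNQ5 rose between days 4 and 9 (log2 fold change 4.56 ± 0.54 (SE), adjusted p = 0.000402), the 3 day 9 values being 8.0 to 9.31 TPM, and was higher on day 20 than on day 0 (log2 fold change 6.41 ± 0.50 (SE), adjusted p = 0.000262). KCNQ1, the pore of the slow delayed rectifier, dipped on day 9. KCNQ1 lay at 4.97, 1.97 and 2.99 TPM on day 0 and at 4.96, 5.33 and 6.12 on day 4. The later replicates were at 3.21, 1.98 and 3.0 on day 9, 3.69, 9.56 and 3.50 on day 11 and 35.7, 16.7 and 16.3 on day 20. It fell between days 4 and 9 (log2 fold change -0.97 ± 0.26 (SE), adjusted p = 0.0135) and was higher on day 20 than on day 0 (log2 fold change 2.60 ± 0.51 (SE), adjusted p = 0.00797), with all day 20 values above all others. KCNQ3, an M-current partner of KCNQ5, was lowest on day 11. Its TPM by replicate were 5.0, 5.22 and 4.09 on day 0, 3.44, 4.18 and 4.95 on day 4, 1.78, 0.954 and 2.86 on day 9, 0.628, 2.07 and 0.307 on day 11 and 16.5, 10.5 and 5.36 on day 20. It fell between days 4 and 9 (log2 fold change -1.11 ± 0.38 (SE), adjusted p = 0.0445), a call lost without any 1 of 4 libraries (adjusted p = 0.0682 without day 4 replicate 1, 0.106 without day 4 replicate 2, 0.121 without day 4 replicate 3 and 0.114 without day 9 replicate 1), and its 3 day 20 values lay above its 3 day 11 values (log2 fold change 3.32 ± 0.73 (SE), adjusted p = 0.0689) without passing the test.

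The pores of the cardiac transient outward and ultrarapid currents moved in different directions. KCND2, a pore of the fast transient outward current, was a stem cell member. The 3 libraries of day 0 gave 15.8, 22.2 and 10.6 TPM, those of day 4 7.70, 14.9 and 21.2 and those of day 9 0.583, 0.428 and 0.706. Day 11 gave 1.07, 0.694 and 0.661 and day 20 1.25, 2.29 and 4.37. It had the second-largest fall between days 4 and 9 (log2 fold change -4.62 ± 0.43 (SE), adjusted p = 0.000122) and was lower on day 20 than on day 0 (log2 fold change -2.83 ± 0.53 (SE), adjusted p = 0.00629). KCND3, the other such pore, stayed low. KCND3 was measured at 0.532, 2.19 and 0.524 TPM on day 0, 0.399, 0.598 and 0.886 on day 4, 0.644, 1.16 and 0.774 on day 9, 1.91, 1.47 and 3.07 on day 11 and 2.36, 6.13 and 3.26 on day 20. KCND3 was called in none of the comparisons; on day 20 its level without replicate 2 was 2.81 TPM, as was that of KCND2. KCNA5, the pore of the atrial ultrarapid current, was highest on day 11. By replicate, KCNA5 read 1.75, 0.816 and 1.10 TPM on day 0, 2.16, 2.52 and 1.04 on day 4 and 3.62, 1.63 and 6.04 on day 9, followed by 20.5, 30.7 and 8.10 on day 11 and 8.11, 26.1 and 2.17 on day 20. It was higher on day 20 than on day 0 (log2 fold change 2.90 ± 0.78 (SE), adjusted p = 0.0272), a call lost without any 1 of the 3 day 0 libraries (adjusted p = 0.0698 without day 0 replicate 1, 0.121 without day 0 replicate 2 and 0.0904 without day 0 replicate 3), and its highest day 20 value was in replicate 2. KCNA4, a pore of the slow transient outward current, was low to day 11. The replicates read 0.138, 0.0287 and 0.246 TPM on day 0, 0.173, 0.0800 and 0.0386 on day 4 and 0.483, 0.436 and 0.452 on day 9. They read 0.366, 0.872 and 0.647 on day 11 and 5.03, 13.7 and 2.94 on day 20. KCNA4 rose between days 4 and 9 (log2 fold change 2.11 ± 0.51 (SE), adjusted p = 0.00903) and over the whole course (log2 fold change 5.42 ± 0.88 (SE), adjusted p = 0.00376), and its day 20 values lay above all 12 others; against day 11 it missed the threshold with all 6 libraries (log2 fold change 3.26 ± 0.63 (SE), adjusted p = 0.0511). KCNA7, a muscle pore, read 11.1, 6.24 and 1.44 TPM on day 20 against 0.275 to 0.528 on day 0 (log2 fold change 3.77 ± 0.80 (SE), adjusted p = 0.0102), a call lost without day 0 replicates 2 or 3 (adjusted p = 0.0652 without day 0 replicate 2 and 0.0501 without day 0 replicate 3). KCNA3, a pore known from lymphocytes, fell between days 4 and 9 (log2 fold change -2.69 ± 0.36 (SE), adjusted p = 0.000456), and KCNA1 and KCNC4 were called in no comparison at day means of 0.475 to 3.94 TPM without day 20 replicate 2. KCND1 fell between days 4 and 9 from 5.76 to 3.6 TPM, a call lost without any 1 of 4 libraries (adjusted p = 0.0681 without day 4 replicate 2, 0.0598 without day 4 replicate 3, 0.0551 without day 9 replicate 1 and 0.0546 without day 9 replicate 2).

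Most inward rectifiers were low in stem cells, and 6 of 13 tested were higher on day 20 than on day 0. KCNJ5 (chr11:128891356-128921163 on GRCh38, plus strand), a subunit of the acetylcholine-activated atrial channel, was near 0 to day 4. TPM of KCNJ5 were 0.260, 0.0197 and 0.253 on day 0, 0.0395, 0.0824 and 0.106 on day 4, 4.87, 3.18 and 8.04 on day 9, 13.8, 64 and 20.6 on day 11 and 62.6, 39.9 and 24.9 on day 20. KCNJ5 rose between days 4 and 9 (log2 fold change 6.18 ± 0.54 (SE), adjusted p = 6.56e-05) and was higher on day 20 than on day 0 (log2 fold change 7.77 ± 0.80 (SE), adjusted p = 0.000686). On day 11 its highest value, 64 TPM, was in replicate 2, the day 11 library with the highest cardiomyocyte sum (20698 TPM). On day 20 the order of its replicates was that of the cardiomyocyte sums. On day 9 the order was the reverse. Replicate 3, at 8.04 TPM, had the lowest cardiomyocyte sum (184 TPM), and replicate 2, at 3.18 TPM, the highest (1281 TPM). The part of cardiomyocyte content in the KCNJ5 values was not tested. KCNJ3, its partner in that channel, rose at the same step. KCNJ3 lay at 0.484, 0.640 and 0.305 TPM on day 0 and at 0.524, 0.596 and 0.384 on day 4. The later replicates were at 7.71, 29.9 and 4.09 on day 9, 30.9, 7.34 and 21.1 on day 11 and 2.45, 12.7 and 14.9 on day 20. KCNJ3 rose between days 4 and 9 (log2 fold change 4.74 ± 0.76 (SE), adjusted p = 0.00167) and was higher on day 20 than on day 0 (log2 fold change 4.11 ± 0.71 (SE), adjusted p = 0.00471). On day 9 KCNJ3 was above KCNJ5 in replicates 1 and 2 and below it in replicate 3, and on day 20 KCNJ5 was above KCNJ3 in all 3 libraries. The 2 did not share their highest library on days 9, 11 or 20.

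KCNJ16, a pH-sensitive partner of KCNJ10, had 0 counts on day 0 and 2 counts over the day 4 libraries, against 533 over the day 9 libraries. In CPM that is 324 times the day 4 level, with a 95% exact interval of 89.3 to 2684 for counting error only. Day 20, with 329 counts, was at least 131-fold above day 0 when day 0 was set at a floor of 3 counts over its 3 libraries. Its TPM were 4.12, 7.85 and 2.82 on day 9 and 4.29, 4.46 and 1.74 on day 20. KCNJ10 moved the other way, falling between days 4 and 9 (log2 fold change -2.42 ± 0.37 (SE), adjusted p = 0.000954). KCNJ8, the pore of the vascular type of ATP-sensitive channel, was retained from day 9. Its TPM by replicate were 1.86, 1.55 and 1.14 on day 0, 0.778, 1.49 and 1.37 on day 4, 7.34, 6.78 and 14.8 on day 9, 7.07, 7.75 and 4.37 on day 11 and 39, 25.9 and 13.3 on day 20. The gene rose between days 4 and 9 (log2 fold change 3.05 ± 0.42 (SE), adjusted p = 0.000565) and was higher on day 20 than on day 0 (log2 fold change 3.86 ± 0.50 (SE), adjusted p = 0.00157). KCNJ11, the pore of the pancreatic and ventricular type, was a stem cell member whose mean was again 11.4 TPM on day 20. The 3 libraries of day 0 gave 12.6, 10.2 and 8.69 TPM, those of day 4 14, 12.5 and 14.1 and those of day 9 3.35, 2.17 and 3.63. Day 11 gave 2.13, 8.66 and 1.89 and day 20 18.5, 11.3 and 4.28. KCNJ11 fell between days 4 and 9 (log2 fold change -2.11 ± 0.25 (SE), adjusted p = 0.000232), and day 20 against day 0 was not called.

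The pores of the classical inward rectifier current, which holds the resting potential of mature heart muscle, were low to moderate. KCNJ2 encodes its main ventricular pore. KCNJ2 was measured at 3.05, 2.59 and 1.53 TPM on day 0, 1.13, 2.44 and 6.80 on day 4, 1.16, 3.32 and 1.84 on day 9, 1.62, 0.863 and 1.80 on day 11 and 1.96, 2.83 and 9.34 on day 20. It was called in no comparison, day 20 against day 11 included (log2 fold change 1.65 ± 0.71 (SE), adjusted p = 0.297), with its highest value, 9.34 TPM, in day 20 replicate 3, the replicate with the lowest cardiomyocyte sum. KCNJ12, a second such pore, was higher late. By replicate, KCNJ12 read 2.05, 1.78 and 0.918 TPM on day 0, 2.69, 2.60 and 2.05 on day 4 and 4.07, 2.12 and 6.74 on day 9, followed by 5.19, 9.12 and 2.13 on day 11 and 12.9, 11.8 and 4.04 on day 20. It was higher on day 20 than on day 0 (log2 fold change 2.34 ± 0.50 (SE), adjusted p = 0.0103), a call lost without day 0 replicates 2 or 3 (adjusted p = 0.0519 without day 0 replicate 2 and 0.0649 without day 0 replicate 3); its near-identical copy KCNJ18 could draw or lose reads to it, so both values are uncertain. KCNJ4, a further pore of the family, peaked on day 20. The replicates read 4.75, 2.10 and 3.49 TPM on day 0, 4.85, 5.12 and 4.24 on day 4 and 4.41, 5.76 and 4.59 on day 9. They read 4.87, 10.4 and 3.09 on day 11 and 29.2, 12.2 and 12.4 on day 20. It was higher on day 20 than on day 0 (log2 fold change 2.18 ± 0.57 (SE), adjusted p = 0.024), a call lost without any 1 of 4 libraries (adjusted p = 0.0683 without day 0 replicate 1, 0.102 without day 0 replicate 2, 0.0857 without day 0 replicate 3 and 0.08 without day 20 replicate 1). KCNJ6, a neuronal relative of KCNJ3, fell between days 4 and 9 (log2 fold change -3.27 ± 0.54 (SE), adjusted p = 0.00186) at means of 1.47 and 0.154 TPM, and KCNJ13 and KCNJ14 had no call at day means of 0.873 to 2.04 TPM without day 20 replicate 2.

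Of the auxiliary subunits KCNIP2 (chr10:101825974-101843920 on GRCh38, minus strand), the calcium-binding partner of KCND2 and KCND3, changed most on the way to day 11. TPM of KCNIP2 were 3.46, 2.48 and 3.52 on day 0, 4.03, 3.62 and 3.94 on day 4, 1.91, 1.95 and 1.48 on day 9, 45.6, 80.9 and 40.0 on day 11 and 33.5, 15.3 and 5.39 on day 20. It was the most abundant member on day 11, where every value lay above all 12 others. KCNIP2 fell between days 4 and 9 (log2 fold change -1.11 ± 0.22 (SE), adjusted p = 0.00343) and rose between days 9 and 11 (log2 fold change 4.91 ± 0.33 (SE), adjusted p = 0.00772), a call lost without day 9 replicate 1 (adjusted p = 0.0721 without day 9 replicate 1). On day 20 its replicates read 33.5, 15.3 and 5.39 TPM, lowest in replicate 3, and all lay below those of day 11 (log2 fold change -1.72 ± 0.62 (SE), adjusted p = 0.212). KCNIP2 was higher on day 20 than on day 0 (log2 fold change 2.28 ± 0.65 (SE), adjusted p = 0.034), a call lost without any 1 of 4 libraries (adjusted p = 0.107 without day 0 replicate 1, 0.142 without day 0 replicate 2, 0.0947 without day 0 replicate 3 and 0.117 without day 20 replicate 1). Its log2 fold change was 1.22 without day 20 replicate 1. On day 11, then, KCNIP2 stood at 55.5 TPM beside 0.81 TPM for KCND2 and 2.15 for KCND3. KCNIP4, a related calcium-binding subunit, rose at the same step and was retained. KCNIP4 lay at 1.92, 2.53 and 1.56 TPM on day 0 and at 1.78, 2.11 and 1.41 on day 4. The later replicates were at 1.61, 4.64 and 1.34 on day 9, 14.2, 12.6 and 9.88 on day 11 and 21.9, 14.2 and 18.8 on day 20. It rose between days 9 and 11 (log2 fold change 2.25 ± 0.44 (SE), adjusted p = 0.0478), a call lost without any 1 of 5 libraries (adjusted p = 0.21 without day 9 replicate 1, 0.134 without day 9 replicate 3, 0.139 without day 11 replicate 1, 0.0827 without day 11 replicate 2 and 0.079 without day 11 replicate 3), and was higher on day 20 than on day 0 (log2 fold change 2.98 ± 0.40 (SE), adjusted p = 0.00178). KCNIP1 was also higher on day 20 than on day 0 (log2 fold change 2.56 ± 0.81 (SE), adjusted p = 0.0478), a call lost without any 1 of 4 libraries (adjusted p = 0.15 without day 0 replicate 1, 0.165 without day 0 replicate 2, 0.131 without day 0 replicate 3 and 0.211 without day 20 replicate 3).

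KCNMB4, a BK channel subunit best known from brain, was the highest auxiliary gene on days 0, 4, 9 and 20. Its TPM by replicate were 12.6, 14.7 and 9.20 on day 0, 13.6, 14.8 and 14.9 on day 4, 17.4, 15.4 and 14.3 on day 9, 16.5, 14.4 and 16.1 on day 11 and 32.4, 18.6 and 26.5 on day 20. Its day 20 values lay above all earlier values in TPM but not in CPM. Day 20 replicate 2, with 355 of 15675095 counts, lay below day 9 replicate 1, with 420 of 16260897. Day 20 against day 0 missed the threshold (log2 fold change 0.89 ± 0.35 (SE), adjusted p = 0.0972) and passed without day 20 replicate 2 (log2 fold change 1.17 ± 0.24 (SE), adjusted p = 0.00876). The mean of KCNMB4 was above that of its pore KCNMA1 on each of the 5 days. KCNE1, the partner of KCNQ1 in the slow delayed rectifier, came late and at a low level. The 3 libraries of day 0 gave 0.0505, 0.0421 and 0.0902 TPM, those of day 4 0.0423, 0.117 and 0.0851 and those of day 9 0.213, 0.609 and 0.142. Day 11 gave 0.537, 1.72 and 0.307 and day 20 1.44, 3.12 and 0.904. KCNE1 was higher on day 20 than on day 0 (log2 fold change 4.56 ± 0.74 (SE), adjusted p = 0.00357), at 1.17 TPM without replicate 2 beside 26.0 for KCNQ1. Of the other KCNE genes, which can also partner KCNQ1, KCNE2 was higher on day 20 than on day 0 (log2 fold change 3.04 ± 0.76 (SE), adjusted p = 0.0196), a call lost without any 1 of 4 libraries (adjusted p = 0.124 without day 0 replicate 1, 0.0708 without day 0 replicate 2, 0.116 without day 0 replicate 3 and 0.0593 without day 20 replicate 3), and KCNE4 fell between days 4 and 9 (log2 fold change -2.77 ± 0.54 (SE), adjusted p = 0.00325) and was higher on day 20 than on day 0 (log2 fold change 2.98 ± 0.61 (SE), adjusted p = 0.00876), the latter call lost without 1 library (adjusted p = 0.0534 without day 0 replicate 2). KCNE5, at 7.22 TPM the highest KCNE gene of day 0, fell between days 4 and 9, as did KCNE3. KCNAB3, a beta subunit of KCNA channels, rose between days 4 and 9 (log2 fold change 2.06 ± 0.26 (SE), adjusted p = 0.000367), and KCNAB1 and KCNAB2, its relatives, were called in no comparison at means of 4.99 and 4.86 TPM on day 20 without replicate 2. KCNMB3 and KCNRG, a soluble suppressor of Kv assembly, stayed between 0.721 and 1.28 TPM on the same basis.

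**Figure D5:**
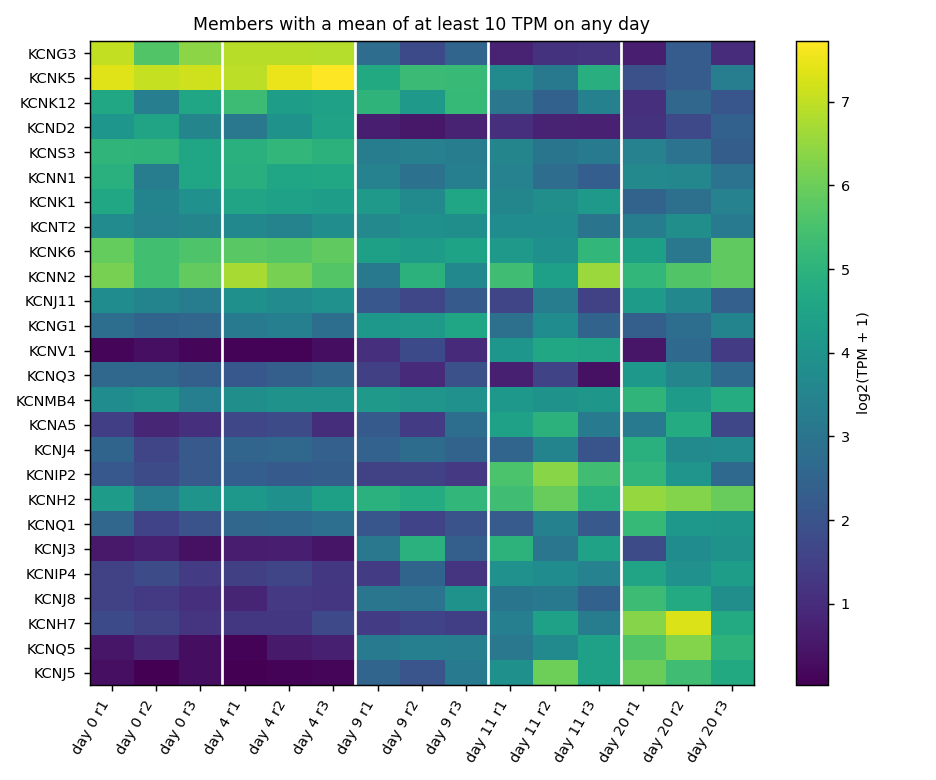
Log2(TPM + 1) of 26 of the 27 members with a mean of at least 10 TPM on any day (rows, ordered by the change from day 0 to the mean of day 20 replicates 1 and 3) in each of the 15 libraries (columns). The upper rows, led by KCNG3 and KCNK5, are bright on days 0 and 4 and the lower rows, down to KCNJ5, on day 20.

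Genes outside the family that complete these channels were read from a list of 13. Of 9 tested between days 4 and 9, 4 fell and 1 rose, beside a median log2 fold change of 0.08. ABCC8, the sulphonylurea receptor that pairs with KCNJ11, fell (log2 fold change -3.22 ± 0.42 (SE), adjusted p = 0.000428), as did the KCND partners DPP10 (log2 fold change -2.07 ± 0.22 (SE), adjusted p = 0.00017) and DPP6 (log2 fold change -1.37 ± 0.41 (SE), adjusted p = 0.0254, a call lost without any 1 of 4 libraries, with adjusted p up to 0.169) and the BK subunit LRRC38 (log2 fold change -2.70 ± 0.49 (SE), adjusted p = 0.00224). LRRC55, a relative of LRRC38, rose (log2 fold change 1.51 ± 0.20 (SE), adjusted p = 0.000417, and 0.0976 with all 15 libraries in one fit). ABCC9, the receptor that pairs with KCNJ8, was at 0.0105 TPM on day 0 and at 2.58 on day 20 without replicate 2 (4.43 with it). It was higher on day 20 than on day 0 (adjusted p = 0.00183), the one of 10 tested that passed in that comparison. None passed between days 0 and 4, 9 and 11 or 11 and 20. The scaffold and trafficking genes AKAP9, DLG1 and NEDD4L and the channel partner AMIGO1 passed in none of the 5 comparisons, with AKAP9 at means of 37.8 to 52.1 TPM, and CAV3, LRRC26 and LRRC52 were too low to test.

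Some members share bases with other genes. Whether the authors counted by strand is not given in the sources used here, so reads of the overlapping bases could count for either gene. On the opposite strand, 444 bases of the exons of KCNIP2 (13.1% of their length) lie within KCNIP2-AS1, 1912 bases of KCNIP4 (46.3%) within PACRGL and a non-coding gene, 268 bases of KCNJ8 (10.7%) and 694 of KCNE2 (65.4%) within non-coding genes, and 3403 of KCNMB3 (38.0%) within PIK3CA. KCNH1 shares 3618 bases (28.1%) with a gene on the opposite strand and 2405 with genes on its own. On the same strand, KCNK4 shares 1628 bases with a read-through gene and KCNRG 1086 of its 1625 exon bases with TRIM13.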

How the data were processed

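Bulk RNA-seq of H1 cells covered 5 days of differentiation with 3 replicates each, described in the labels as biological replicates grown in wells; whether they were separate differentiation runs is not stated, so p-values measure the spread between these samples. The authors prepared stranded total RNA libraries, aligned reads with STAR 2.5.2b to hg38 and counted reads per gene with featureCounts 1.5.1, with rRNA and mitochondrial genes removed. The deposited counts are whole, unnormalized reads per gene. The deposited TPM were made by the authors from those counts, with a gene length not stated in the sources used here. The deposited sample table gives sequencing lane, RNA integrity number (a score) and uniquely mapped reads as a fraction. No column of other samples was set aside.

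Gene IDs were matched to GENCODE release 44 (46872 of 48777). Comparisons used edgeR 4.0.16 on the 6 libraries concerned (filter at a minimum count of 10 and a total of 15, TMM scaling, robust quasi-likelihood test, two-sided, Benjamini-Hochberg over all genes tested), after a check on simulated counts. DESeq2 1.42.0, limma 3.58.1 on log2 TPM with pseudocounts of 1 and 0.1, other scalings and filters, blocks for lane and plate, and leaving out each library were the alternatives. An exact permutation test of 3 against 3 libraries cannot go below p = 0.1 and was not used for calls. TPM levels are per length; intervals and floors cover counting error only. The members and gene lists were chosen with earlier results of these data known. By rule, every retained member is named, except a few whose results are not reported here; values in every library are given for the highest member of each role, members at 10 TPM or more and a list of cardiac channel genes, and fold changes for up to 10 members past the threshold in each direction.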

Additional observations from a re-analysis of the deposited data

How the results depend on the processing

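No printed fold change, of a potassium channel gene or a partner gene, changed sign under any alternative. Between days 4 and 9 all alternatives kept the count of called members within 1.5 times of 45, and 41 of the 45 calls held in every fit without 1 library and 30 under every alternative, most of the losses being in one fit of all 15 libraries; between days 0 and 4 all alternatives gave 0. The 4 calls between days 9 and 11 became 1 at an adjusted p under 0.01 and 13 with DESeq2, and ranged from 0 to 7 without 1 library, with 0 calls held in every such fit. The 0 calls between days 11 and 20 became 12 with DESeq2, 2 with no filter on low counts, 23 with all 15 libraries in one fit, 1 with limma on log2 TPM plus 1 and 1 with the sequencing lane as a block, and ranged from 0 to 2 without 1 library. The 29 calls of day 20 against day 0 became 18 at an adjusted p under 0.01 and ranged from 18 to 39 without 1 library, 17 of them holding in every such fit; the causes were not tested. Upper-quartile scaling moved the median log2 fold change of all genes to 0.18 for day 20 against day 11 and 0.20 for day 20 against day 0. The day 20 count of 92 members at 1 TPM was 61 by the median, 49 when each library had to pass, and 58 to 95 without 1 library; at 2 TPM the counts of days 0 and 4 were 35 and 37. With no filter on low counts KCNN2 and KCNQ3 lost their falls between days 4 and 9 (adjusted p = 0.0729 and 0.159) and KCNE2 its day 20 call against day 0 (0.0934), and KCNE1 lost that call with limma on log2 TPM plus 1 (0.0739). The calls of KCNIP4 between days 9 and 11 and of KCNK1 and KCNIP1 on day 20 against day 0 were lost under other scalings. With the plate number as a replicate block, 11 members were called between days 9 and 11 (9 higher and 2 lower) and 0 between days 11 and 20. Plate-mates deviated together with r of 0.14 to 0.36 over 2 pairs in the first case and -0.17 to 0.37 over 3 pairs in the second, so the plate number was taken as a number only, and the other comparisons shared fewer than 2 plates.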
